A study of Mus musculus with 2 samples.

Results

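The Tbx3/Klf4-high naive cells were the mouse embryonic stem (ES) cells with many transcripts of both Tbx3 and Klf4. A member was a barcode with at least 18000 unique molecular identifiers (UMIs, each counting 1 captured RNA molecule), at least 1000 genes, at most 10% mitochondrial UMIs and at least 10 UMIs of Pou5f1 (Oct4). It also had at least 5 UMIs of Tbx3, at least 5 of Klf4, and fewer than 50 UMIs summed over the fibroblast genes Col1a1, Col1a2, Bgn, Mgp and S100a4. There were 1041 members at time 1 and 5017 at time 2, together 6058 of the 54279 cells within the depth, gene and mitochondrial limits. They were set beside 12894 and 7028 cells that met the same limits but had at most 1 UMI of each of the genes, called low cells here. Both classes were chosen by the measured Tbx3 and Klf4 UMIs, so their own levels are a description, and every other difference between high and low cells comes from the same cells that the rule sorted.

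The cells came from 9 ES cell lines of the mouse strain C3H/HeSn-Paf/J, 3 of each chromosomal sex (XX, XO and XY), pooled for sequencing. Single cells of the pool were sequenced on a droplet platform at an initial time point (time 1) and again after 10 further passages (time 2), with 1 library each. All lines grew on irradiated mouse embryonic fibroblast feeders in medium with serum and leukaemia inhibitory factor (LIF), with no kinase inhibitors named. Cells are not linked to their line of origin here, so a difference in the mix of lines and a change with time cannot be told apart, and with 1 library per time point there is no test and no replicate check of any difference. Values are therefore given for each library, with 95% counting intervals (exact Poisson for UMI sums, exact Clopper-Pearson for shares) that cover counting error only.

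Mouse ES cells in serum and LIF move between a naive state, which resembles the inner cell mass of the blastocyst, and states closer to the epiblast about to differentiate, often called primed. Klf4, a zinc-finger factor induced by LIF through Stat3, and Tbx3, a T-box factor, belong to the network that holds the naive state together with Nanog, Esrrb, Tfcp2l1 and other factors. Fgf4-driven MAPK signalling pushes cells out of it. In female ES cells both X chromosomes are active, and this higher dose of X-linked genes is known to slow exit from the naive state.

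The deposited matrices held 145288 and 52242 barcodes with 1735810403 and 1843588321 UMIs, and 25962 and 28317 barcodes passed the limits on depth, genes and mitochondrial share. The 2 libraries shared 194 of these barcodes, a number that counts sequences of the droplet beads and not cells. Members were deeper than low cells, with a median of 74141 against 39942 UMIs at time 1 and 75726 against 43379.5 at time 2 (the limits on Tbx3 and Klf4 are fixed numbers of UMIs). Their median mitochondrial share was 2.21% against 2.37% at time 1 and 2.05% against 2.03% at time 2. Fibroblast barcodes, with at least 50 UMIs of the 5 fibroblast genes and fewer than 10 of Pou5f1, numbered 221 and 347. After thinning to 18000 UMIs, 59.7% and 68.6% of them held a Klf4 UMI. The shares were 91.5% and 93.6% in high cells and 19.9% and 18.4% in low cells, classes that the rule set by their Klf4 UMIs. Of 10 further fibroblast genes outside the rule, 9 were at or below 7.23 counts per 1000000 UMIs (CPM) in high cells in both libraries. The collagen gene Col3a1 stood at 0.227 and 0.322 CPM and Dcn at 0.1815 and 0.0987 CPM. The list summed to 71.1 CPM in high and 241.7 in low cells at time 1, and to 46.1 and 228.7 at time 2. Most of it was Tagln, a cytoskeletal gene, seen after thinning in 93.7% and 95.1% of fibroblast barcodes and in 64.5% and 53.6% of low cells.

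Members made up 4.24% of 24551 eligible cells at time 1 (3.99 to 4.50%) and 18.5% of 27078 at time 2 (18.1 to 19.0%). Eligible cells met every limit other than those on Tbx3 and Klf4. The share was thus higher at time 2, and it stayed so among cells of 30000 to 60000 UMIs, at 2.295% and 11.3%. With each cell thinned to 18000 UMIs and limits of 2 UMIs for each gene, the shares were 3.51% and 13.3%.

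Klf4 was the more widespread of the pair. Of the cells with at least 5 Tbx3 UMIs, 82.0% at time 1 and 87.2% at time 2 also had at least 5 Klf4 UMIs. Of the cells with at least 5 Klf4 UMIs, 24.3% and 39.9% had at least 5 of Tbx3. Cells with Tbx3 at 5 or more and Klf4 at 1 or fewer were rare, with 62 and 131, while the converse held for 2419 and 4226 cells. The map of UMIs per cell shows this as a filled edge along the Klf4 axis and a thin one along the Tbx3 axis.

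**Figure D1:**
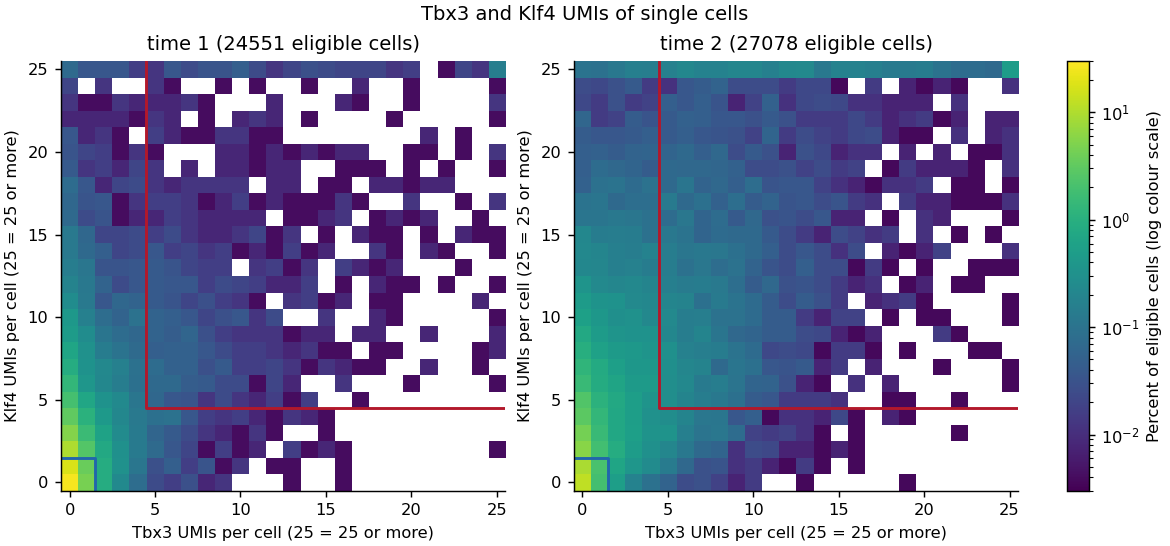
Tbx3 UMIs (horizontal) against Klf4 UMIs (vertical) of the eligible cells in each library, with values of 25 or more placed at 25 and colour giving the percent of eligible cells on a log scale. The red lines bound the high cells and the blue lines the low cells, and the red area is fuller at time 2 (18.5% of cells) than at time 1 (4.24%).

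The gene that marked these cells most strongly outside the rule was Jam2, which encodes a junctional adhesion molecule and was one of the label's 3 markers. Jam2 was at 152.6 CPM in high and 12.8 in low cells at time 1 (intervals 150.02 to 155.2 and 12.5 to 13.1), and at 85.6 and 12.9 CPM at time 2 (84.8 to 86.5 and 12.6 to 13.3). CPM here are the UMIs of a class summed over its cells and scaled to the class total. After thinning every cell to 18000 UMIs, 84.0% of high cells held a Jam2 UMI at time 1 and 69.3% at time 2, against 19.7% and 19.2% of low cells (96.7, 94.8, 33.1 and 35.2% before thinning). Fibroblast barcodes thinned alike held one in 24.9% and 20.5%, so the share in low cells was no higher than theirs. Tbx3 was at 131.8 and 119.2 CPM against 3.51 and 3.24, and Klf4 at 175.4 and 205.8 CPM against 9.26 and 9.21, both fixed by the rule. The label, with Jam2 as a marker, was chosen with earlier results of these data known. The level of Jam2 therefore describes the classes and is not independent support for the label. The genes lie on chr5:119670669-119684724 (Tbx3, plus strand), chr4:55527143-55532466 (Klf4, minus strand) and chr16:84774123-84825928 (Jam2, plus strand) of GRCm38.

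Of 4996 tested genes, those that reached 20 CPM in the high or the low class of each library, 91 were at least 2-fold higher in high cells in both libraries (1.82%) and 53 at least 2-fold lower in both (1.06%), on the log2 (CPM + 1) scale used throughout. Tbx3 and Klf4 are counted among the 91. In single libraries the higher genes numbered 135 (2.7%) and 98 (1.96%), and the lower genes 74 (1.48%) and 78 (1.56%). There were 0 genes 2-fold higher in 1 library and 2-fold lower in the other, and 83.8% had the same sign in both. The same 9 lines lie behind both libraries, so they are not independent replicates.

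Zfp57, Tet2 and Foxd3 were among the 12 genes furthest above low cells. Zfp57, a zinc-finger protein that keeps methylation at imprinted loci, was at 77.5 against 14.7 CPM at time 1 and 82.5 against 15.9 at time 2. Tet2, which oxidises methylated cytosine, was at 37.5 against 9.11 and 48.0 against 10.7 CPM. Foxd3, a forkhead factor needed in pluripotent cells, was at 25.2 against 5.20 and 21.4 against 4.89 CPM. The 3 had log2 ratios from 1.93 to 2.32 in the 2 libraries.

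Besides Jam2, the other genes of the highest 12 were of mixed function. Calcoco2, an autophagy receptor, was at 250.2 against 26.8 CPM at time 1 and 202.8 against 35.3 at time 2, the most abundant of the set. Cobl, an actin nucleator, was at 23.0 against 3.06 and 41.4 against 6.30 CPM. Aqp3, a water and glycerol channel, was at 52.95 against 9.94 and 23.0 against 5.81 CPM. Nid1, a basement membrane protein also seen in 75.6% and 68.6% of thinned fibroblast barcodes, Fam25c, Arl14epl, Gm46332 and the X-linked Gm14820 completed the 12, with log2 ratios between 1.88 and 2.56 in the 2 libraries.

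Of the 12 genes furthest below low cells, Psmb8 was first and was followed by the epiblast ligands Fgf8 and Fgf5. Fgf8, an FGF ligand of the late epiblast and primitive streak, was at 15.0 CPM in high and 78.9 in low cells at time 1 and at 5.88 and 52.2 at time 2. Fgf5, the classical marker of primed epiblast, was at 6.50 against 35.7 and 2.55 against 26.01 CPM. Pou3f1 (Oct6), a POU factor of primed cells, was at 26.9 against 98.7 and 17.9 against 70.2 CPM. All 3 were nearer to absence in high cells at time 2 than at time 1.

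The remaining genes of the lowest 12 were Psmb8, a subunit of the immunoproteasome, the actin-binding Tagln and Cnn1, the keratin Krt8, the carbonic anhydrase Car4, Sema6a, Arl4c, Cthrc1 and Prtg. Psmb8 was at 8.59 against 49.5 CPM at time 1 and 3.82 against 32.2 at time 2, with log2 ratios of -2.40 and -2.78. Of thinned fibroblast barcodes, 62.4% and 59.7% held an Arl4c UMI and 57.5% and 54.8% a Cthrc1 UMI, against 62.2% and 40.5%, and 62.6% and 35.5%, of low cells. Tagln was at 58.5 against 221.3 and 36.45 against 212.2 CPM, and Krt8 at 39.55 against 123.7 and 20.98 against 99.96 CPM.

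The windows from 250 bases before to 50 after the transcription start are shown for the regulators Tet2 and Foxd3, both among the 12 highest, for Fgf5 from the 12 lowest, and for Klf4, which chose the cells. They come from RefSeq on GRCm38.p6, at chr3:133544341-133544640 (Tet2, minus strand), chr4:99656049-99656348 (Foxd3, plus strand), chr5:98253934-98254233 (Fgf5, plus strand) and chr4:55532426-55532725 (Klf4, minus strand). Capitals mark matches, on either strand, to 3 motifs, namely GGGNGNGG for the family of KLF and SP factors, GGTGTGA for T-box factors and TTCNNNGAA for STAT factors.
Klf4: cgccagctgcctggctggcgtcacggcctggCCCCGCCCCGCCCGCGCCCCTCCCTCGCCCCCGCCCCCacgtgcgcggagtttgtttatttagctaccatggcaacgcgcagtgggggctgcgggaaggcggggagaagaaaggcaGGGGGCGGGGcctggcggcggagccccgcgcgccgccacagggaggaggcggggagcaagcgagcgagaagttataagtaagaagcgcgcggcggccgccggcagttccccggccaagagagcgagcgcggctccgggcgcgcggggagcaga
Tet2: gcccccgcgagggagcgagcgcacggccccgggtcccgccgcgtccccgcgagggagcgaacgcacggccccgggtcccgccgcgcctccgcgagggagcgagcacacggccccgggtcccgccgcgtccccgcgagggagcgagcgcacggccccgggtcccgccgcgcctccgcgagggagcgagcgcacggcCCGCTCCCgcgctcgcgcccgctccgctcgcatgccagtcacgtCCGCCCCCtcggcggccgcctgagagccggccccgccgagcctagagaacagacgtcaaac
Foxd3: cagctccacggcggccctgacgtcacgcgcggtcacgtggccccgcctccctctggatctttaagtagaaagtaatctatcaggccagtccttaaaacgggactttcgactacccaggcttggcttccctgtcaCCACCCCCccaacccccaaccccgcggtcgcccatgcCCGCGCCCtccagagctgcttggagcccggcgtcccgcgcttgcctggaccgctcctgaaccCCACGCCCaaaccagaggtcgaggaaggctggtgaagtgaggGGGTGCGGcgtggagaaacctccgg
Fgf5: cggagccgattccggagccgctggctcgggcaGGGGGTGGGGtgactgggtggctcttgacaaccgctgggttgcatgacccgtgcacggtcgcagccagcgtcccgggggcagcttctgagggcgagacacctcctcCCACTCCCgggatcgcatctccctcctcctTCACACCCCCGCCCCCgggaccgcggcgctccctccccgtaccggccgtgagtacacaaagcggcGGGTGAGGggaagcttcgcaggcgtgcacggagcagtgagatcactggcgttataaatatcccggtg

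The KLF-type motif had 9 matches in the Klf4 window, 2 in Tet2, 4 in Foxd3 and 6 in Fgf5, with neighbouring matches overlapping. The T-box motif had 1 match, in Fgf5, and overlapped a KLF-type match there. The STAT motif had none in these 4. Of all 32851 promoter windows in the table, 49.5% held the KLF-type motif, 3.98% the T-box and 8.30% the STAT motif. Windows of the highest 12 genes, with entries for 8 of them, held the KLF-type motif in 7 of 11 windows, and those of the lowest 12, with entries for 7, in 7 of 7. A KLF-type match was therefore present on both sides of the comparison and in about as many windows as not across the genome, and the T-box motif was found in 0 of the 11 windows of the highest and 1 of the 7 of the lowest genes. Such matches are letters in a window and were not tested for binding.

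Naive regulators, in a list chosen with earlier results of these data known, were higher in members as a group. Of 12 listed besides Tbx3 and Klf4, 9 reached 20 CPM. Their median log2 ratio was 1.46 at time 1 and 1.22 at time 2, where all tested genes had medians of 0.02 and -0.00393. Of the 9, 6 passed 2-fold higher in both libraries, where 1.82% of all tested genes did, and 0 passed 2-fold lower in both. Nr0b1 (Dax1), an X-linked nuclear receptor, was at 60.4 against 9.46 CPM at time 1 and 68.0 against 20.98 at time 2. Tcl1, an Akt co-activator, was at 89.2 against 18.6 and 57.5 against 18.0 CPM. Tfcp2l1, a LIF-responsive naive factor, was at 65.7 against 15.5 and 88.9 against 27.9 CPM. These were the widest gaps among the 9 tested genes.

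The best known members of the naive network followed. Nanog was at 264.7 against 92.5 CPM at time 1 and 163.4 against 69.4 at time 2, and after thinning was seen in 96.1% and 87.6% of high cells and in 74.5% and 62.9% of low cells (99.7, 99.1, 89.9 and 84.1% before thinning; 19.9% and 6.92% of thinned fibroblast barcodes). Esrrb, an orphan nuclear receptor, was at 53.6 against 18.8 and 60.1 against 22.2 CPM. Klf5 was at 230.3 against 90.2 and 255.5 against 117.8 CPM. Klf2 (log2 ratios of 1.02 and 0.94) and Zfp42 or Rex1 (1.23 and 0.84) passed 2-fold at time 1 only.

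Dppa3 (Stella), a maternal factor often used as a mark of naive cells, ran the other way. Its level was 139.3 CPM in high and 238.2 in low cells at time 1, and 95.5 and 192.7 at time 2, log2 ratios of -0.77 and -1.01. Among cells with a low X dosage, a measure set out with the X-linked results, its ratio was 0.14 at time 1 and -0.95 at time 2, so in that subset the direction held at time 2 only. Prdm14, Nr5a2 and Gbx2 did not reach 20 CPM in both libraries and were not tested. Prdm14, which represses Dnmt3b and FGF signalling, was at 11.6 against 1.92 CPM and 7.71 against 2.32. Nr5a2, a nuclear receptor, was at 15.7 against 3.60 and 27.8 against 13.7 CPM.

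**Figure D2:**
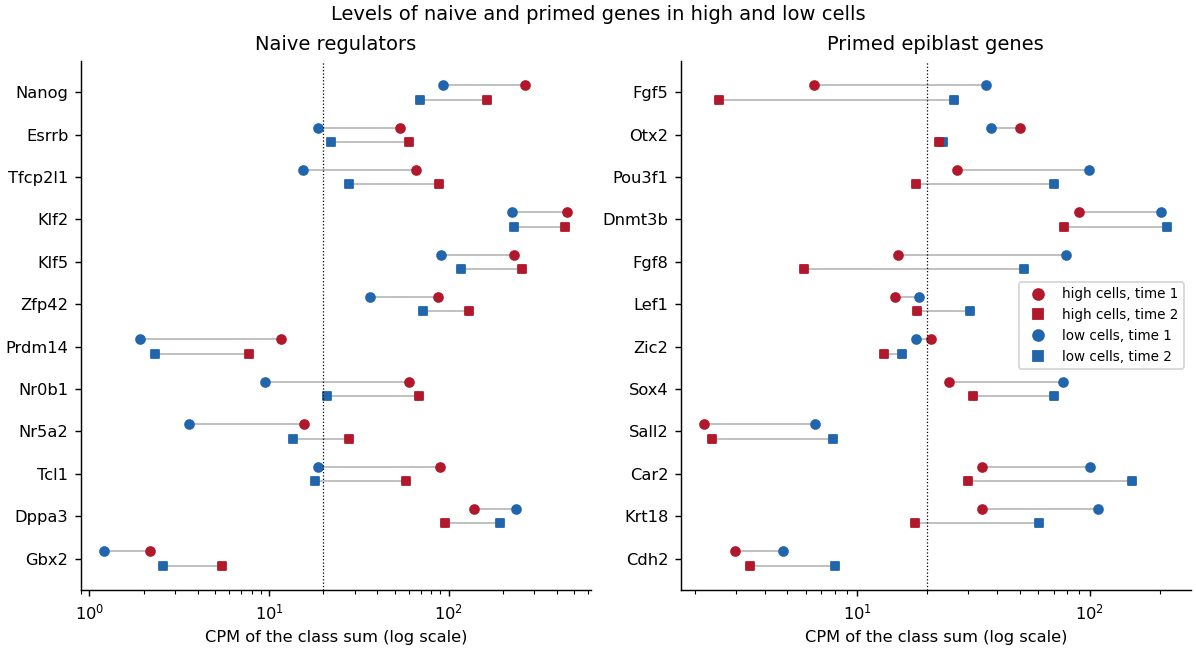
Levels of the listed naive regulators (left) and primed epiblast genes (right) in high (red) and low (blue) cells, as CPM of the class sum on a log axis, circles for time 1 and squares for time 2, with the dotted line at 20 CPM. Red lies right of blue for 11 of 12 naive genes in both libraries, Dppa3 being the exception, and left of blue for most primed genes.

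Core pluripotency genes, which naive and primed cells share, differed less. All 10 were tested; their median log2 ratios were 0.48 and 0.32, and 1 passed 2-fold in both libraries. That was Fgf4, the ligand that ES cells secrete and that feeds the MAPK pathway, at 98.8 against 22.5 CPM and 82.5 against 22.7. Sox2 was at 351.4 against 193.4 and 342.6 against 191.6 CPM. Tdh, the threonine dehydrogenase of mouse ES cells, had ratios of 1.21 and 0.95, whereas Lin28a, an RNA-binding protein that increases on leaving the naive state, had -0.76 and -0.40. Pou5f1 itself, required by the rule in both classes, was at 765.5 against 700.1 and 823.0 against 752.7 CPM.

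Primed epiblast genes, in a list chosen with earlier results of these data known, were lower as a group. Of 12 listed, 8 were tested, with medians of -1.60 and -1.81. Of all tested genes 1.06% passed 2-fold lower in both libraries, and of these 8 genes 7 did. Besides Fgf5, Fgf8 and Pou3f1 these were the de novo DNA methyltransferase Dnmt3b (90.2 against 202.0 and 77.6 against 215.6 CPM), the carbonic anhydrase Car2 (34.5 against 99.7 and 30.1 against 151.6 CPM), Sox4 and Krt18. Otx2, a homeobox factor that drives the passage to the primed state, was the exception among the 8 tested genes. It was at 50.2 against 37.5 CPM at time 1 and 22.4 against 23.4 at time 2, ratios of 0.41 and -0.06. Within cells of low X dosage its ratios were -0.29 and -0.55, and within cells of high X dosage 0.57 and 0.50. Zic2, Lef1, Sall2 and Cdh2 did not reach 20 CPM in both libraries and were not tested. Zic2 was at 20.7 against 17.8 CPM at time 1 and 13.0 against 15.6 at time 2. Its ratios were -0.08 and -0.45 within cells of low X dosage and 1.36 and 0.55 within cells of high X dosage. Lef1, Sall2 and Cdh2 were below low cells in both libraries.

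Of 10 listed MAPK feedback genes and targets, 7 were tested, with medians of -0.60 and -0.14, and 0 of the 7 passed 2-fold in both libraries. The medians were -0.28 and -0.0506 with classes set on thinned UMIs and -0.11 and -0.0462 in cells of low X dosage. The phosphatase Dusp4, left out of the count by the limit of 20 CPM, was at 6.06 against 13.2 CPM at time 1 and 8.65 against 18.6 at time 2, ratios of -1.01 and -1.02. The phosphatase Dusp6, a direct reporter of ERK activity, was at 18.9 against 36.1 CPM at time 1 and 14.3 against 25.6 at time 2 (ratios -0.90 and -0.79), and Ier3 had ratios of -0.90 and -0.83. The inhibitor Spry2 had ratios of -0.60 and 0.59, opposite signs in the 2 libraries. Etv4, an ETS factor downstream of FGF, was on the higher side in both, at 0.45 and 0.68, and Etv5 was close to equal at 0.07 and 0.04. The list thus held genes on both sides.

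The immediate early and dissociation genes leaned lower, with medians of -0.72 and -0.59 over 6 tested. Fos was at 37.3 against 87.7 CPM at time 1 and 17.4 against 33.3 at time 2, and Jun at 61.4 against 120.9 and 23.5 against 53.6, each past 2-fold in 1 library only. Such genes respond to handling as well as to signalling, and the part of handling was not tested.

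In the Nodal pathway, Lefty1 and Lefty2, the related feedback inhibitors, differed. Lefty1 was at 236.9 against 444.4 CPM at time 1 and 128.0 against 426.3 at time 2, ratios of -0.90 and -1.73. Lefty2 was at 307.1 against 160.7 and 159.6 against 138.9 CPM, ratios of 0.93 and 0.20, which became -0.16 and -0.47 within cells of low X dosage. Nodal, the ligand, had ratios of -0.22 and -0.29, and over the 7 tested genes the medians were -0.48 and -0.60 with 0 past 2-fold in both libraries.

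Among BMP and Id genes, Id1, a target of BMP signalling, was lower in both libraries, at 24.6 against 58.7 CPM and 46.1 against 154.4 (ratios -1.22 and -1.72), and was the only one of 4 tested to pass. Id3 had ratios of -0.35 and -0.63. The LIF-Stat3 list had 4 tested genes and medians of -0.04 and 0.07, with 0 past 2-fold in both. Its receptor Lifr, under 20 CPM, was at 15.9 against 7.02 and 19.4 against 9.93 CPM, while the target Socs3 had ratios of -0.49 and 0.27. For the Wnt list, 3 of 10 genes were tested and 0 passed in either library. Under the limit, the Wnt target Sp5 was at 2.53 against 13.8 and 3.44 against 10.1 CPM, and Notum, a secreted Wnt inhibitor, at 10.8 against 1.48 and 11.4 against 3.40 CPM.

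Of the 6 listed DNA methylation genes, which do not include Dnmt3b (2-fold lower in both libraries, above), 5 had ratios above 0 in both libraries. The list had medians of 0.57 and 0.62, and Tet2 alone passed 2-fold in both libraries. Tet1 was at 193.4 against 94.0 CPM and 224.8 against 125.0 (1.03 and 0.84), and Dnmt3l, the catalytically inactive partner of the de novo enzymes, at 232.5 against 129.4 and 146.4 against 77.1 (0.84 and 0.92). Uhrf1, which brings the maintenance enzyme to newly copied DNA, had ratios of 0.30 and 0.41. The maintenance enzyme Dnmt1, one of the 5, was nearly equal, with ratios of 0.01 (interval -0.025 to 0.044) and 0.08, and the de novo enzyme Dnmt3a had -0.33 and -0.22.

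Of 8 tested adhesion and junction genes, the claudins Cldn6 and Cldn7 passed 2-fold lower in both libraries. Cldn7 was at 47.2 against 136.9 CPM at time 1 and 19.95 against 76.0 at time 2. Cdh1 (E-cadherin) had ratios of -0.36 and -0.42 and Epcam -0.58 and -0.68, while Icam1 had 0.79 and 0.78. In all, 6 of the 8 were below low cells in both libraries, and Icam1 and Pecam1 (0.56 and 0.13) were above. Jam2 is not on this list.

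Cell cycle lists did not separate the classes by 2-fold. The 10 S phase genes had medians of 0.10 and 0.07, and the 10 G2/M genes 0.11 and 0.01. Glycolytic genes had medians of -0.22 and -0.16. Markers of other lineages were mostly at low levels in both classes. The 9 trophoblast genes summed to 109.4 CPM in high and 124.1 in low cells at time 1 and to 67.1 and 79.3 at time 2, led by Tfap2c, the only one tested, at 65.05 against 59.7 and 41.6 against 45.5 CPM. The 8 germline genes summed to 81.8 against 80.2 and 63.5 against 75.8 CPM. The 10 primitive endoderm genes summed to 22.5 CPM in high and 20.8 in low cells at time 1 and to 36.8 and 18.8 at time 2. The 7 mesendoderm genes summed to 6.26 against 24.4 and 7.43 against 34.7 CPM, led by T (brachyury) at 1.33 against 7.97 and 2.72 against 18.7 CPM. The 8 two-cell-like genes summed to 5.25 against 7.78 and 1.17 against 1.68 CPM.

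**Figure D3:**
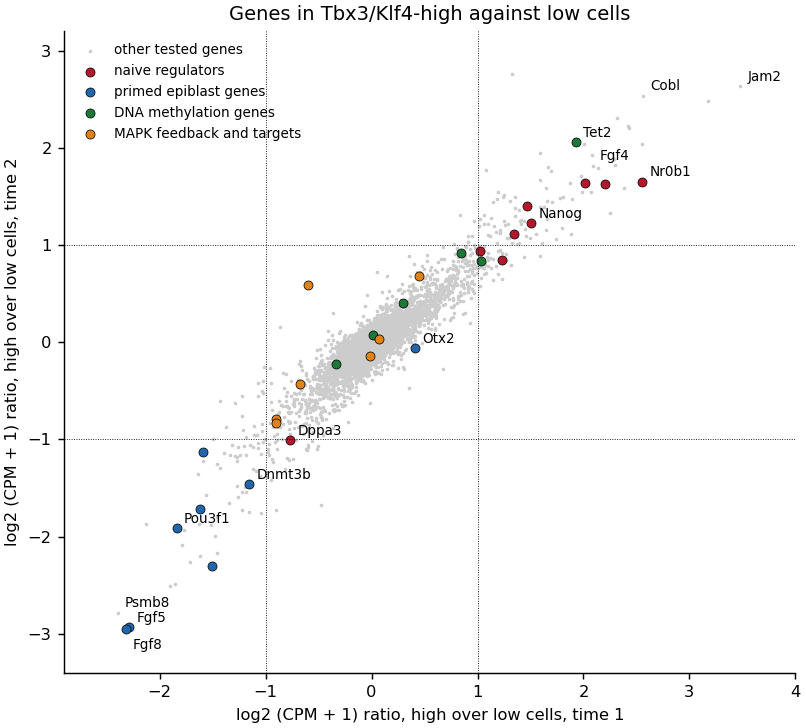
The log2 (CPM + 1) ratio of high over low cells at time 1 (horizontal) and time 2 (vertical), 1 point for each tested gene outside the rule, with listed groups in colour and dotted lines at 2-fold. Naive regulators (red) other than Dppa3 lie in the upper right, primed genes (blue) other than Otx2 in the lower left, and MAPK genes (orange) between them.

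Over bins of all eligible cells, the pooled levels of Jam2 and Fgf5 and the naive and primed medians changed step by step. Cells were binned by the sum of Tbx3 and Klf4 UMIs after thinning to 18000 UMIs, with 0, 1, 2 to 3, 4 to 6, 7 to 10, and 11 or more. Jam2 was at 14.4, 23.6, 42.9, 96.6, 136.8 and 212.6 CPM over these bins at time 1 and at 16.6, 26.8, 39.1, 58.5, 96.15 and 162.5 at time 2. Fgf5 was at 33.1, 28.4, 19.6, 9.84, 4.44 and 3.19 CPM at time 1 and at 20.6, 10.4, 4.69, 1.88, 1.31 and 1.03 at time 2. Jam2 was thus higher, and Fgf5 lower, in each further bin in both libraries. The naive list went from a median ratio to low cells of 0.05 to 1.85 at time 1 and from 0.22 to 1.55 at time 2, and the primed list from -0.02 to -2.33 and from -0.18 to -2.45. The MAPK list moved less, from -0.01 to -0.41 and from -0.06 to -0.15, and not in the same direction at each step. Nr0b1 was lower in the top bin than in the bin of 7 to 10 in both libraries (51.6 against 54.4 and 63.4 against 67.1 CPM). Zfp42 at time 2 was at 135.7 CPM in the bin of 4 to 6 and 117.6 in the top bin. The X-high share went from 39.4% to 86.1% at time 1 and from 6.80% to 70.6% at time 2. A gradient between cells and a changing mix of cells in the bins cannot be told apart here.

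**Figure D4:**
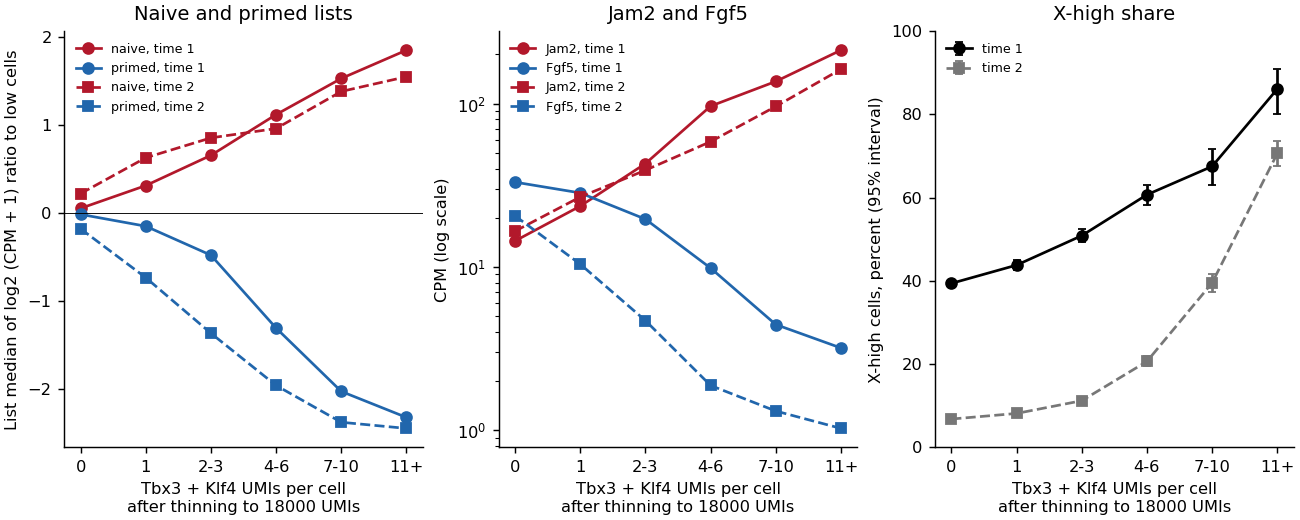
Values over bins of summed Tbx3 and Klf4 UMIs per cell after thinning: the median log2 (CPM + 1) ratio to low cells of the naive and primed lists (left), Jam2 and Fgf5 in CPM on a log axis (middle), and the percent of X-high cells with 95% binomial intervals (right). Solid lines are time 1 and dashed lines time 2, and the X-high share at time 2 is 39.5% in the bin of 7 to 10 and 70.6% in the top bin.

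At the edge of the rule, Jam2 was somewhat higher in cells just inside than just outside. Among cells with at least 5 Klf4 UMIs, those with exactly 5 Tbx3 UMIs (163 at time 1 and 841 at time 2) had Jam2 at 89.2 and 58.8 CPM, and those with 4 (200 and 966 cells) at 75.2 and 48.2. Their naive medians were 1.17 and 0.95 just inside and 0.93 and 0.97 just outside. Among cells with at least 5 Tbx3 UMIs, those with exactly 5 Klf4 UMIs (57 and 265) had Jam2 at 123.4 and 57.1 CPM, and those with 4 (75 and 227) at 95.5 and 52.5. At this Klf4 edge naive medians were 1.14 and 1.05 inside and 1.18 and 0.99 outside, and primed medians -1.53 and -1.75 inside and -1.94 and -1.66 outside. The share of high X dosage was also higher just inside, at 74.2% and 23.4% against 69.5% and 16.5% at the Tbx3 edge. Intervals there overlapped at time 1 (66.8 to 80.8% and 62.6 to 75.8%) and did not at time 2 (20.6 to 26.4% and 14.2 to 18.95%). At the Klf4 edge the share was 78.95% and 14.7% against 70.7% and 11.45%, with overlapping intervals in both libraries.

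Either gene on its own went with part of the pattern. Cells with Tbx3 at 5 or more but Klf4 at 1 or fewer had naive medians of 0.86 and 1.03 and primed medians of -1.24 and -1.35. Cells with Klf4 alone had naive medians of 0.65 and 0.83 and primed medians of -0.36 and -1.27. Jam2 was at 65.4 and 45.7 CPM with Tbx3 alone and at 30.4 and 31.3 with Klf4 alone. Jam2 was thus higher with Tbx3 alone than with Klf4 alone in both libraries, and below its level in members in both cases. Cells of high X dosage made up 66.1% and 13.7% of those with Tbx3 alone, and 37.4% and 9.44% of those with Klf4 alone. The part of X dosage in the Jam2 difference was not tested.

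Members carried more X-linked RNA than low cells. X-linked UMIs amounted to 5.14% of autosomal UMIs in high and 3.98% in low cells at time 1 and to 3.40% and 2.81% at time 2, log2 ratios of 0.37 and 0.28. The shift ran along the chromosome, as 87.3% and 80.9% of 173 tested X-linked genes had a ratio above 0, with medians of 0.37 and 0.28, against medians of 0.01 and -0.01 over 4809 autosomal genes. Of the 91 genes 2-fold higher in both libraries, 13 were X-linked, and of the 53 lower genes 2 were.

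A dosage was computed for each cell as the X-linked over autosomal share of 319 X-linked and 9256 autosomal genes, divided by the median in cells with at least 2 UMIs of 4 Y-linked genes, and cells at 1.2 or more were called X-high. X-high cells made up 86.3% of high (84.0 to 88.3%) and 40.4% of low cells (39.6 to 41.3%) at time 1, and 41.9% (40.5 to 43.3%) and 6.90% (6.32 to 7.52%) at time 2. The X-high share was lower at time 2 in both classes, and at both times it was higher in members. Within 1.1 to 1.3 of the dosage scale lay 55 and 377 of the members and 2524 and 1176 of the low cells. At time 2 more low cells lay that near the limit than the 485 called X-high, so the X-high share of low cells depends on where the limit is set. Y-positive cells were rarer among members, with 0.865% against 4.68% at time 1 and 1.28% against 3.94% at time 2. Xist, the RNA that silences an X chromosome, was at 18.1 CPM in high and 48.7 in low cells at time 1 and at 3.63 and 3.26 at time 2.

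**Figure D5:**
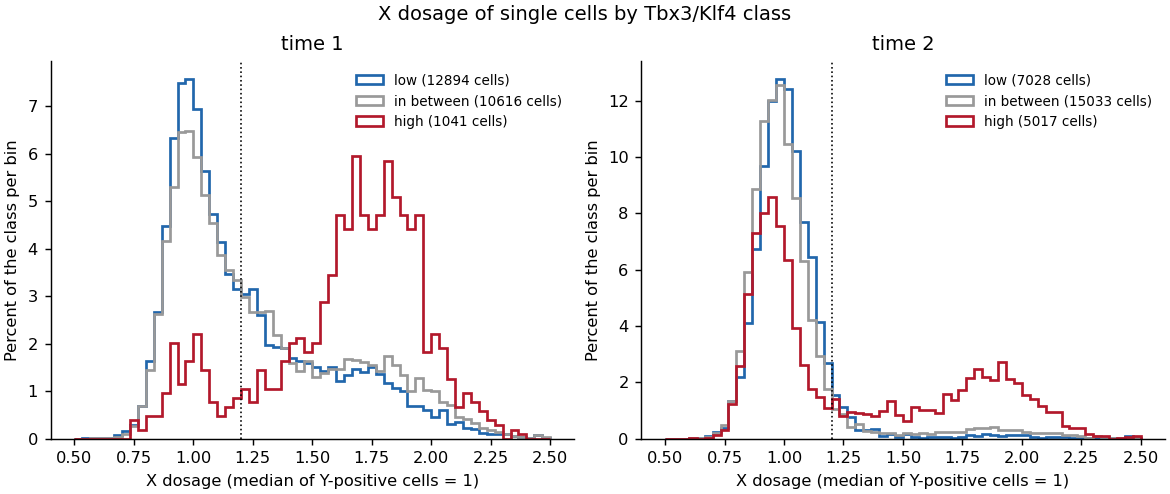
Distribution of X dosage, scaled so that the median of Y-positive cells is 1, in low (blue), in-between (grey) and high (red) cells of each library, as percent of each class per bin, with the dotted line at the limit of 1.2. High cells have a median dosage of 1.70 at time 1 and 1.05 at time 2, when they form 2 groups, and 86.3% and 41.9% of them are X-high.

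Read the other way, 8.17% of X-high cells were members at time 1 and 1.05% of X-low cells, and at time 2 the shares were 51.7% and 12.7%. Both groups of cells thus held a larger share of members at time 2. Among cells of 30000 to 60000 UMIs members made up 5.04% of X-high and 0.538% of X-low cells at time 1 and 41.0% and 6.97% at time 2. The scale holds for ES cells only, since the ratio also depends on cell type.

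The naive and primed differences were present within each dosage group. In X-low cells alone the naive list had medians of 1.38 and 1.00 and the primed list -1.54 and -1.68. In X-high cells alone they were 1.46 and 1.33, and -1.08 and -2.21. Jam2 was at 74.3 against 9.77 CPM in X-low high and low cells at time 1 and at 48.9 against 12.7 at time 2, and at 164.7 against 17.2 and 141.4 against 16.3 CPM in X-high cells. Its level in members was therefore more than 2-fold higher in X-high than in X-low cells in both libraries. Fewer genes passed 2-fold in both libraries among X-low cells, with 44 higher and 37 lower. Of these, 37 and 31 were among the 91 higher and 53 lower genes of all cells. There were 143 X-low members at time 1, and the part of cell number in the lower counts was not tested. Among X-high cells 88 were higher and 64 lower, of which 65 and 26 were among the 91 and 53. Numbers of genes tested within each dosage group are not given, so these counts cannot be read as shares.

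Within the members, X-high and X-low cells were compared directly, a comparison added after the data were seen. X-high and X-low members also differed in the rule genes. Tbx3 was at 138.2 against 90.4 CPM at time 1 and 154.3 against 96.0 at time 2, and Klf4 at 178.7 against 154.1 and 286 against 152.9. Gains of autosomes, called as set out below, were found in 5.23% against 19.6% at time 1 and 11.4% against 90.3% at time 2. The part of each in the differences was not tested. Of 4940 genes that reached 20 CPM in 1 of these groups in each library, 45 were 2-fold higher in X-high members in both libraries (0.911%) and 5 were 2-fold lower (0.101%). Of the higher genes 24 were among 191 tested on the X and 21 among 4749 on autosomes. X-high cells were chosen by their X-linked UMIs, so the X-linked part of this count follows from the choice. Smc1b, a meiotic cohesin subunit on chromosome 15, was at 73.3 against 20.3 CPM at time 1 and 53.9 against 10.4 at time 2. Hormad1, a meiotic axis protein, was at 57.7 against 22.5 and 43.1 against 15.1 CPM. Lefty2 was at 334.7 against 129.3 and 250.7 against 99.5 CPM. The other genes of the 8 furthest higher on autosomes were Fam25c, Abcb1b, Tesc, Tuba3a and Crlf2.

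The 5 genes lower in X-high members were Plac8, the imprinted Phlda2 and Grb10, Apoa2 and Cdk6. Plac8 was at 26.2 CPM in X-high and 114.9 in X-low members at time 1 and at 43.2 and 129.1 at time 2, and Phlda2 at 29.4 against 106.9 and 36.0 against 102.5 CPM. Naive regulators were split. Nanog (279.8 against 167.6 and 240.2 against 112.7 CPM) and Tcl1 (96.5 against 41.8 and 90.1 against 36.1 CPM) were higher in X-high members in both libraries, and Esrrb (54.6 against 47.6 and 64.9 against 56.9 CPM) was nearly level. Klf2 (458.2 against 461.2 and 414.1 against 463.3 CPM) was not higher in either. The X-linked Dusp9, a phosphatase that acts on ERK, was at 124.8 against 52.5 and 99.6 against 34.1 CPM, and Klhl13, an X-linked ubiquitin ligase adaptor, at 355.7 against 168.4 and 196.0 against 34.1.

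No DNA was measured, so gains of autosomes were called from RNA alone, by the share of a cell's informative UMIs from each chromosome, at a threshold of 1.3 times the median of eligible cells at time 1. At least 1 such gain was called in 7.20% of high and 8.79% of low cells at time 1 and in 57.3% and 74.5% at time 2. X-high cells carried fewer gains (19.5% against 85.4% of X-low eligible cells at time 2), so the classes were also compared within dosage groups. Among X-high cells at time 2, 11.4% of high (10.0 to 12.8%) and 36.7% of low cells (32.4 to 41.2%) had a gain, and chromosome 8 was gained in 1.38% and 24.3%. At time 1 the X-high shares with any gain were 5.23% and 3.70%.

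Among X-low cells the difference depended on the chromosome. At time 2 the chromosome 1 call was made in 82.1% of 2916 high (80.6 to 83.4%) and 46.6% of 6543 low cells (45.3 to 47.8%), and a gain of chromosome 14 in 31.5% (29.8 to 33.2%) and 7.84% (7.20 to 8.52%). The chromosome 8 call went the other way, with 28.4% (26.8 to 30.1%) and 44.6% (43.4 to 45.8%). The order was the same among X-low cells of 30000 to 60000 UMIs, at 85.05% against 47.0% for chromosome 1, 44.5% against 8.45% for chromosome 14 and 28.2% against 44.5% for chromosome 8. At time 1, where gains were few, chromosome 1 was called in 9.09% of 143 X-low high cells (13 cells, 4.93 to 15.0%) and 0.690% of 7681 low cells.

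The gains also differed in combination. Chromosomes 1 and 14 together, without 8, were called in 25.45% of X-low high cells and 4.86% of low cells at time 2, chromosome 8 without 1 or 14 in 7.17% and 27.1%, and none of the 3 in 10.05% and 25.6%. Chromosomes 1 and 8 without 14 were close, at 15.6% and 14.9%. The calls and gene levels rest on the same UMIs. In X-low cells at time 2 the median log2 ratio of high over low was 0.15 over 311 genes of chromosome 1 and 0.17 over 181 genes of chromosome 14, on the side of the calls. Over 325 genes of chromosome 8 it was 0.00263, with 50.8% of them above 0. The gene levels in X-low cells thus did not show the lower share of chromosome 8 calls in high cells. Over all cells at time 2, chromosome 8 was called in 17.1% of high and 43.2% of low cells. There the median log2 ratio over its 296 tested genes was -0.11, with 32.4% above 0. Tbx3 lies on chromosome 5, Klf4 on chromosome 4 and Jam2 on chromosome 16. Many other genes named above lie on chromosomes with frequent gains. Examples are Tfcp2l1, Lefty1, Lefty2 and Arl4c on chromosome 1, and Klf2, Zfp42 and Dusp4 on chromosome 8. Klf5, Fam25c, Tdh, Otx2 and Spry2 are examples on chromosome 14. The part of the gains in the levels of these genes was not tested. Whether gains differ by line, and so whether cells with a gain share an origin, was not tested, as cells are not linked to lines.

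Between the libraries few genes differed 2-fold within members. Of 5325 genes that reached 20 CPM at time 1 or time 2, 31 were 2-fold higher at time 2 in members (0.582%) and 85 were 2-fold lower (1.6%). With TMM scaling in place of class totals these were 73 higher and 52 lower, so which direction held more genes depended on the scaling. In low cells 27 of 5274 were higher (0.512%) and 74 lower (1.4%), in cells of the same pair of libraries. The 8 of the 31 higher genes on chromosome 1, where gains were frequent at time 2, compare with 295 tested genes on that chromosome, and 15 of the 85 lower genes were among 202 tested on the X.

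The genes furthest higher at time 2 were Ccnd2, a D-type cyclin (3.83 CPM at time 1 and 20.7 at time 2), Apoa2, an apolipoprotein (11.2 and 47.0), B930036N10Rik, the Ras-family gene Mras (11.9 and 36.6), Gfod2 and the linker histone Hist1h1b (140.3 and 404.6). Mras was low in low cells at both times, at 1.53 and 5.75 CPM. The genes furthest lower were Copz2 (33.2 and 4.98), Baiap2l1 (52.2 and 10.5), the imprinted H19 (50.5 and 11.4), Ndufa4l2 (68.9 and 15.8) and the X-linked Xlr3c (51.5 and 11.6) and Rhox1 (82.0 and 19.4). All 12 had the same direction in X-low and in X-high members taken alone, with log2 ratios of 1.15 to 2.12 and 1.198 to 1.65 for the 6 higher genes and of -2.91 to -2.04 and -1.82 to -1.05 for the 6 lower ones. Each of the 12 had the same sign in low cells, where the log2 ratios were 1.02 to 1.98 and -3.08 to -1.90.

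The markers themselves did not all hold their level. Jam2 in members was 152.6 CPM at time 1 and 85.6 at time 2 while staying at 12.8 and 12.9 in low cells, and Nanog was 264.7 and 163.4. In X-high members Jam2 was at 164.7 and 141.4 CPM, and in X-low members at 74.3 and 48.9, so within each dosage group the gap between the libraries was smaller than over all members. X-high cells were 86.3% of members at time 1 and 41.9% at time 2. Of the 8 tested primed genes, 7 were lower in members at time 2 than at time 1, with a list median of -0.74 for time 2 over time 1 against -0.46 in low cells. Dnmt3b (-0.21) and Car2 (-0.19) differed little, and Sox4, a SOX factor, was higher at time 2, at 24.8 and 31.5 CPM.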

How the data were processed

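Gene expression of single cells was measured with 10x Chromium 3.1 chemistry at each time point, with 1 library each. Counts as the authors deposited them are whole UMIs by gene and barcode from Cell Ranger 6.1.2 (bcl2fastq 2.20.0.422 for the reads) on mm10/GRCm38, per the submitters' processing notes. Lipid-tag libraries, meant to trace a cell to its line, were not analysed here.

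From the counts, barcodes were kept by the limits given in the report and UMIs were summed per class and library. Ratios are log2 of CPM plus 1. Genes needed 20 CPM in either class in each library, and a call needed 2-fold in both. With 1 library per group no model was fitted and no p-value is given. Of 32285 genes in the files, 32235 matched GENCODE M21 by identifier for their chromosome. X dosage and gains used genes detected in at least 5% of cells, without ribosomal protein genes or genes above 3% of their chromosome's UMIs. Scrublet, run in scanpy 1.11.5, marked 0 cells at its automatic threshold and so did not work as a caller. Cells with the highest 10% of its scores were removed as an alternative only, and doublets remain in the main values. Of the members, 14.1% and 19.0% were in that top 10%, against 8.70% and 3.12% of low cells. Calculations used Python 3.11.15, numpy 2.4.6, scipy 1.17.1 and pandas 2.3.3. TMM factors came from edgeR 4.0.16 in R 4.3.3, used for scaling only. The scaling and calling steps were tested on simulated class sums.

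The members, gene lists and comparisons were chosen with earlier results of these data known. Genes named outside the lists are the 12 highest and 12 lowest ratios of high over low, ranked by the library nearer to 0, and the 6 highest and 6 lowest of time 2 over time 1. The X-high against X-low comparison within members and the gain combinations were added after the values were seen, and their named genes are the 8 largest autosomal differences each way and listed genes. Promoter windows are from RefSeq, and Tbx3 and Jam2 were not among its entries used here.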

Additional observations from a re-analysis of the deposited data

Results flagged for a closer look

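Barcodes outside the rule also held Tbx3 and Klf4. With at least 5 UMIs of each gene but under 10 of Pou5f1 there were 15 barcodes at time 1 and 31 at time 2, of which 14 and 21 had at least 50 UMIs of the 5 fibroblast genes. With at least 10 Pou5f1 UMIs and at least 50 fibroblast UMIs there were 18 at time 1 and 104 at time 2. These barcodes were left out of every comparison above, and whether they hold a feeder, a feeder with an ES cell, or free RNA was not tested.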

How the results depend on the processing

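No paired analysis was possible because each time point has 1 library, and for the same reason no replicate could be left out. The 91 higher and 53 lower genes became 144 and 87 among cells of 30000 to 60000 UMIs, and 262 and 228 with no minimum CPM. With no minimum CPM, genes under 20 CPM are counted too, so 262 and 228 are not out of the 4996 tested genes. Numbers of genes tested in the other settings are not given, so their counts cannot be read as shares. With cells of no called gain 144 genes were higher, and with X-low cells only 44. Time 2 over time 1 gave 31 higher and 85 lower genes; TMM scaling gave 73 and 52, so the balance of that split rests on the scaling, no minimum CPM 73 and 285, cells without a called gain 11 and 38, X-high cells only 12 and 33, and X-low cells only 47 higher. The cause of these shifts was not tested.

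The naive median (1.46 at time 1, 1.22 at time 2) was 1.55 and 1.196 with classes set on thinned UMIs, 1.57 and 1.40 with 8 UMIs required, 1.56 and 1.29 with low cells at 0 UMIs, 1.68 and 1.48 at 30000 to 60000 UMIs, 1.56 and 1.32 without the highest doublet scores, and 1.38 and 1.00 in X-low cells. At time 2 it was also 1.32 with the mean of single-cell CPM, 1.27 with TMM, 1.33 in X-high cells and 1.64 without a called gain. The primed median (-1.60 and -1.81) was -1.96 and -2.15, -1.80 and -1.85, -1.89 (time 2 only), -2.11 and -2.50, -1.94 and -2.21, and -1.54 and -1.68 under those first 6 settings in turn, -1.80 and -1.95 with the single-cell mean, and -1.08 and -2.21 in X-high cells. At time 2 it was -1.77 with TMM, -1.86 with a pseudocount of 0.1 and -2.17 without a called gain. Both lists kept their direction in each of these.

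The MAPK median (-0.60 and -0.14) was -0.28 and -0.0506 with thinned classes, -0.11 and -0.0462 in X-low cells and -0.37 and -0.37 in X-high cells. At time 1 it was -0.71 with 8 UMIs required, -0.51 with low cells at 0, -0.39 at 30000 to 60000 UMIs and -0.67 with the single-cell mean, and at time 2 -0.23 without a called gain. The X-linked log2 ratio (0.37 and 0.28) was 0.36 and 0.37 with thinned classes, 0.42 and 0.37 with 8 UMIs, 0.38 and 0.27 with low cells at 0, 0.40 and 0.41 at 30000 to 60000 UMIs, 0.39 and 0.29 without the highest doublet scores, 0.38 and 0.32 with the single-cell mean, 0.36 and 0.51 without a called gain and 0.41 and 0.28 over informative genes. It was 0.38 at time 1 with fibroblast UMIs under 10. The share of members (4.24% and 18.5%) was 3.51% and 13.3% with thinned classes, 2.13% and 9.53% with 8 UMIs, 2.295% and 11.3% at 30000 to 60000 UMIs, and 16.8% at time 2 without the highest doublet scores.

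Some list medians changed sign. The LIF-Stat3 median (-0.04 at time 1, 0.07 at time 2) was 0.0312 with thinned classes and 0.0538 at 30000 to 60000 UMIs at time 1, and -0.0211 in X-low and -0.0693 in X-high cells at time 2. The Wnt median at time 2 (0.12) was -0.0776 in X-low cells. The X-linked candidates (0.31 and 0.51) were at -0.0280 in X-high cells at time 1 and -0.0581 in X-low cells at time 2. The G2/M median at time 2 (0.01) was -0.0521 with thinned classes, -0.0621 at 30000 to 60000 UMIs and -0.0116 without a called gain. The trophoblast list, 1 tested gene, was -0.39 in X-high cells at time 1 (main 0.12) and 0.33 without a called gain at time 2 (main -0.13). The X-low, X-high, no-gain and informative-gene settings were added after the data were seen. Depth limits the ratios of genes under 20 CPM and the values of the 143 X-low members at time 1, of which 39 had 30000 to 60000 UMIs.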
